A study of Homo sapiens with 40 samples.

Results

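This section compares the mRNAs of RKO cells given a non-targeting siRNA with those of the same cells given DMSO. The cells carry guides against IGF2BP3 and were never induced to cut it. The comparison uses 8 of the 40 libraries of the series, chosen by their labels: 4 of sgIGF2BP3 cells given the non-targeting siRNA (called siControl here) and 4 of the same cells given DMSO. RKO is an established line of human colorectal carcinoma. The cells held a doxycycline-inducible Cas9, GFP, and a lentiviral vector with eBFP2 and a pair of guides against IGF2BP3, and were sorted as an eBFP2-positive population. Neither group received doxycycline, so Cas9 was not induced on purpose in either. The siControl group received ON-TARGETplus nontargeting siRNA #1 at 75 nM for 48 hours with the lipid reagent DharmaFECT 2, and its treatment field reads "no treatment". The DMSO group is the solvent control of the doxycycline arm, in which doxycycline was given at 250 ng/mL for 72 hours. No DMSO is stated for the siControl group. Every group was given 4-thiouridine (s4U) at 250 µM for 2 hours before harvest, and poly(A) RNA was sequenced. The siRNA, the lipid, the DMSO and the culture schedule set the 2 groups apart together and cannot be told apart, nor can fewer cells of a kind and less RNA per cell. Each library came from 1 well of a 24-well plate, so the p-values below measure the spread between wells. The same 2 treatments in sgIGF2BP2 cells, with 4 libraries each, share no library with this comparison and are set beside it.

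An siRNA is a short RNA duplex, one strand of which is loaded into an Argonaute protein and guides it to complementary mRNAs. Endogenous microRNAs (miRNAs), which the ribonuclease DICER1 cuts from hairpins, use the same Argonaute proteins and bind mRNAs mostly through their seed, bases 2 to 8, at matching sites in 3′ UTRs. Cationic lipids carry siRNA into cells by way of endosomes, which mature into lysosomes. Lysosome genes are known targets of the transcription factors TFEB and TFE3, and genes of cholesterol synthesis are known targets of SREBP2, the product of SREBF2.

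The sequences on which the results below turn are those of 4 miRNAs from RefSeq (GRCh38.p14), with the seed in capitals, because the word count below turns on them: the matches to the first 3 families were among the 10 highest-ranked 7-base words of 3′ UTRs in siControl cells, while miR-17 is shown for its 8-base matches.
hsa-let-7a-5p: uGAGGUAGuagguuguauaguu
hsa-miR-29a-3p: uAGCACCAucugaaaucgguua
hsa-miR-19b-3p: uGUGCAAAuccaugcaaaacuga
hsa-miR-17-5p: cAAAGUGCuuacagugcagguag
Their seed matches, written as DNA on the mRNA strand, are CTACCTC for let-7, TGGTGCT for miR-29, TTTGCAC for miR-19 and GCACTTT for miR-17. The 3′ UTRs of several genes described below hold such a match. Their 22-base windows from the GENCODE 29 transcripts are given here 5′ to 3′ with the match in capitals, extended to 8 bases where an A follows it.
DICER1 (miR-29 match, chr14:95089091-95089112, minus strand): atttttcccctgttTGGTGCTA
TNFAIP3 (miR-29 match, chr6:137881363-137881384, plus strand): gctgtcagtcatcaTGGTGCTA
TNFAIP3 (let-7 match, chr6:137882593-137882614, plus strand): atgcctctgagtgtcCTACCTC
INSIG1 (miR-29 match, chr7:155308646-155308667, plus strand): aaggaggtaggttgaTGGTGCT
HMGCS1 (miR-29 match, chr5:43289916-43289937, minus strand): ttgtgtagatcttttTGGTGCT
SCD (let-7 match, chr10:100364381-100364402, plus strand): ataataatactgacCTACCTCA
CDK6 (miR-29 match, chr7:92606427-92606448, minus strand): cctggcttgtccacaTGGTGCT
IGF2BP2 (let-7 match, chr3:185644220-185644241, minus strand): acacacagaagaagCTACCTCA
IGF2BP3 (let-7 match, chr7:23311795-23311816, minus strand): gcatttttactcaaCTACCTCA

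Of the 11428 genes tested, 2222 passed an adjusted p of 0.05 between siControl and DMSO (19.4%), 1246 higher (10.9%) and 976 lower (8.54%); a gene is called below when it passed this test. The response was broad and shallow. The median size of a called change was 0.21 on the log2 scale, 1528 called genes changed by less than 1.2-fold, 98 by 1.5-fold or more and 22 by 2-fold or more. Tested against a change of 1.2-fold in place of no change, 125 genes passed (1.09%). With upper quartile scaling the split turned to 978 higher and 1426 lower. The 8 libraries held 10215084 to 16987628 counts each, with 7.94% to 8.50% mitochondrial counts in DMSO and 8.13% to 9.09% in siControl. Of the markers of colon epithelium and RKO, EPCAM, KRT8, KRT18, CDX2 and VIM were read and CDH1, KRT19, KRT20, VIL1 and MUC2 had at most 1 count, while none of 20 markers of other cell types passed the count filter. Of these 5 markers that were read, KRT8 (-0.27), KRT18 (-0.12) and VIM (-0.19) were called lower and none higher, and the same number fell in sgIGF2BP2 cells (median -0.12 and -0.23). Their summed level was 307 to 321 CPM in DMSO and 274 to 298 CPM in siControl, and 1 was called lower without siControl replicate 1 or 2 or DMSO replicate 4. The part of this shift in the results below was not tested. Of the named genes DTX3L, SREBF1, NPC2, CCNE2, CCND1, DNAJB1, ATP5ME, KRT8 and IGF2BP3 share exon bases with a gene on the opposite strand, and their counts are uncertain because the strand setting of the counting is not given in the sources used here.

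IGF2BP3, the RNA-binding protein the guides are directed against, was read at 180, 181, 175 and 185 CPM (counts scaled to library size) in the DMSO libraries and at 168, 173, 164 and 174 CPM in the siControl libraries. The siControl values all lay below the DMSO values, but the difference of -0.08 on the log2 scale (SE 0.040) was not called (adjusted p = 0.132), except with upper quartile scaling (adjusted p = 0.0457) or when only the compared libraries were fitted (adjusted p = 0.0374). Its paralog IGF2BP2 was read at 92.6, 98, 93.8 and 93.2 CPM in DMSO and at 118, 110, 115 and 116 CPM in siControl. These groups did not overlap, and IGF2BP2 rose by 0.28 on the log2 scale (SE 0.043, adjusted p = 6.46e-07). In sgIGF2BP2 cells, which were likewise not induced, it rose by 0.34 (SE 0.043, adjusted p = 4.48e-09). Both mRNAs hold a let-7 match of 8 bases, printed above. IGF2BP1, the third family member, had 0 to 1 counts in each of the 40 libraries.

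DICER1, which makes miRNAs and processes long double-stranded RNA, showed one of the largest rises. It lies at chr14:95086228-95158010 on the minus strand (GENCODE 29, hg38). It was read at 40.2, 37.0, 38.3 and 36.9 CPM in the DMSO libraries and at 79.7, 73.5, 75.1 and 75.1 CPM in the siControl libraries. The siControl level was 1 log2 unit higher within rounding (0.99, SE 0.056, adjusted p = 2.23e-23), with a wide gap between the groups. The same treatment in sgIGF2BP2 cells raised it by 0.93 (SE 0.056). Across the series, the mean DICER1 level was 75.4 ± 2.66 CPM (SD) in sgIGF2BP3 cells given the siRNA pool against IGF2BP3 and 63.8 ± 6.90 CPM in sgIGF2BP2 cells given the pool against IGF2BP2. It was 36.7 ± 4.04, 37.9 ± 0.988 and 37.8 ± 2.05 CPM in the doxycycline groups of sgIGF2BP3, sgIGF2BP2 and sgAAVS1 cells. The siRNA groups of these lines thus stood apart from all groups without siRNA in this mRNA.

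Without DICER1, 17 genes of the small RNA machinery were tested, of which 4 were called higher (23.5%, against 10.9% of all genes) and 3 lower (17.6%, against 8.54%). Their changes were small, with a median log2 fold change of 0.01, against -0.00 over all genes. TARBP2, the double-stranded RNA-binding partner of DICER1, was read at 34.4 to 42.2 CPM in DMSO and at 43.4 to 48.3 CPM in siControl, a rise of 0.24 (SE 0.062, adjusted p = 0.00241). AGO2, the Argonaute that cleaves targets, rose by 0.12 (adjusted p = 0.00906), from 336 ± 6.99 to 365 ± 3.94 CPM. XPO5, which exports miRNA hairpins from the nucleus, and TNRC6B, a silencing partner of the Argonautes, each rose by 0.14. HSP90AA1, a chaperone used in loading Argonaute, fell by 0.22 on the log2 scale (adjusted p = 2.44e-06), HSP90AB1 by 0.09 and TSN by 0.14. DROSHA, which cuts primary miRNA transcripts, was at -0.12 without a call (adjusted p = 0.0780). Counted with DICER1, 5 were called higher and 3 lower, turning to 3 and 1 with a GC content and length offset and to 4 and 1 without siControl replicate 2 or DMSO replicate 1.

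The genes named next were called, reached a mean log2 CPM of 2 and had groups that did not overlap, as in 12.2% of all genes for rises and 9.74% for falls. The largest such rise was that of GDF15, a secreted stress cytokine of the TGF-beta family. It was read at 3.82, 3.95, 4.24 and 3.65 CPM in DMSO and at 8.50, 7.65, 9.54 and 7.55 CPM in siControl. Every siControl library was above every DMSO library, and the change was 1.08 on the log2 scale (SE 0.13, adjusted p = 2.67e-09). HMOX1, which breaks down heme, went from 61.7 ± 1.46 to 107 ± 5.03 CPM (0.80, SE 0.045, adjusted p = 1.61e-23). BIRC3 and TNFAIP3, an inhibitor of apoptosis and a ubiquitin-editing enzyme that are both known NF-kB targets, each rose by 0.73 (adjusted p = 1.74e-07 and 1.00e-04). The other named rises were NOV (0.92) and MYOF (0.81), the glucose transporter SLC2A3 (0.69), MAP1A (0.73), and the adhesion genes LAMA1, ITGAX and ITGA5, described below. In sgIGF2BP2 cells 11 of these 12 were called higher, while TNFAIP3 was at 0.32 without a call (adjusted p = 0.0766).

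The largest fall was that of CTGF (now CCN2), a matricellular protein and known target of the coactivator YAP, at chr6:131948176-131951373. It was read at 32.5, 30.4, 30.6 and 29.7 CPM in DMSO and at 14.5, 15.2, 13.4 and 17.6 CPM in siControl. Its level thus dropped by 1.02 on the log2 scale (SE 0.073, adjusted p = 1.74e-18), with no overlap. CYR61 (CCN1), its relative and another YAP target, went from 108 ± 1.42 to 74.2 ± 5.08 CPM (-0.55, SE 0.042). BCL2A1, an anti-apoptotic member of the BCL2 family, went from 180 ± 4.34 to 122 ± 6.56 CPM (-0.56, SE 0.043). TOMM5, a subunit of the mitochondrial import pore (-0.93), the proteasome subunit gene PSMA6 (-0.59), RNF227 (-0.56), CCDC190 (-0.58), CFAP54 (-0.54) and the transcription factor gene RFX3 (-0.54) were read at mean levels of 3.35 to 23.9 CPM. RFX3 was at 0.00 and TOMM5 at -0.27 without a call in sgIGF2BP2 cells (adjusted p = 0.995 and 0.221), but neither difference between the lines was called (adjusted p = 0.927 for both). ALDOA, an enzyme of glycolysis, fell by 0.60 on the log2 scale and MT-ATP8 by 0.66, and both share exon bases on the same strand with another tested gene (AC093512.2 and MT-ATP6), so the counts of these genes depend on how shared reads were assigned. MT-ND6 fell by 0.66 on the log2 scale, with DMSO libraries from 192 to 272 CPM and siControl libraries from 124 to 165 CPM.

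Lysosome and autophagy genes had the largest share called higher of the lists examined. Of 33 tested, 22 were called higher and 1 lower (10.9% and 8.54% of all genes), with a median log2 fold change of 0.24. The summed level of the list was 3071 to 3100 CPM in the DMSO libraries and 3591 to 3668 CPM in the siControl libraries. Several members were put on the list as known targets of TFEB and TFE3, so the list is not a random draw of lysosome genes. NPC2, which hands cholesterol out of the lysosome, was read at 27.6, 26.4, 30.5 and 28 CPM in DMSO and at 47.6, 43.2, 41.1 and 45.8 CPM in siControl. That is a change of 0.66 (SE 0.066, adjusted p = 1.79e-12) with a clear gap between the groups. FLCN, whose product works with FNIP1 and FNIP2 on lysosomal nutrient sensing, was read at 19.1, 19.7, 17.7 and 18.7 CPM in DMSO and at 31.6, 28.8, 30.1 and 28.7 CPM in siControl, again 0.66 (SE 0.069). FNIP2 rose by 0.55, FNIP1 by 0.20 and RRAGC, a RAG GTPase on the lysosome surface, by 0.37.

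Among the enzymes of the lysosome lumen, the protective protein gene CTSA went from 273 ± 3.17 to 388 ± 4.34 CPM (0.51, adjusted p = 9.16e-21). NEU1, the sialidase that CTSA protects, went from 15.2 ± 0.618 to 22.7 ± 2.06 CPM (0.57). HEXA and GAA, which degrade gangliosides and glycogen, rose by 0.50 and 0.24. The cathepsins CTSD, CTSL and CTSB rose by 0.35, 0.18 and 0.12. GLA, the alpha-galactosidase, was the exception, falling by 0.20 on the log2 scale (adjusted p = 0.0129), with 42.6 to 53.1 CPM in DMSO and 40.4 to 47.6 CPM in siControl, which overlap. The autophagy receptor SQSTM1 rose by 0.47, WIPI1 by 0.36 and UVRAG by 0.48, and of the proton pump ATP6V1B2 rose by 0.32 and ATP6V1C1 by 0.17. The mRNAs of the regulators themselves were not called, with TFE3 at 0.02 (adjusted p = 0.726) and TFEB at -0.10 (adjusted p = 0.689). In sgIGF2BP2 cells 23 of the 33 were called higher and none lower, with a median of 0.20.

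Of 26 genes of cholesterol synthesis and uptake, 13 were called higher (50%, against 10.9% of all genes) and none lower. The median log2 fold change was 0.16. INSIG1, which holds the SREBP proteins in the endoplasmic reticulum, was read at 36.5, 32.9, 34.6 and 32.7 CPM in DMSO and at 55.0, 49.5, 51.2 and 54.5 CPM in siControl. The groups did not overlap (0.62, SE 0.057, adjusted p = 6.29e-14). HMGCS1, the first committed step towards mevalonate, went from 32.7 ± 1.66 to 47.1 ± 1.36 CPM (0.52, adjusted p = 1.94e-10). Later enzymes rose as well, with DHCR7 at 0.46, LSS at 0.44, MSMO1 at 0.41, MVK at 0.40, SQLE at 0.28 and MVD at 0.23. SREBF2 went from 208 ± 3.79 to 272 ± 7.58 CPM (0.38, adjusted p = 4.57e-14). IDI1 (-0.01), FDPS (0.07) and SC5D (-0.02) were not called. Of 12 genes of fatty acid synthesis, 5 were called higher (41.7%) and none lower, among them SREBF1 (0.34) and the desaturase gene SCD (0.26). Only 3 were called higher with upper quartile scaling, with the GC content and length offset, or without siControl replicate 1 or 2. In sgIGF2BP2 cells 15 cholesterol genes and 3 fatty acid genes were called higher, and none lower.

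The promoters of these genes, from 250 bases before to 50 after the start in RefSeq (GRCh38.p14), were searched on both strands for TCACGTG, an E-box form that TFEB and TFE3 are known to bind, and for TCACNCCAC, a form of the sterol regulatory element. A window was found for 9363 of the genes tested and 5.97% of them held TCACGTG. Of the 22 lysosome genes with a window, 9 held it (40.9%). Several genes were listed as known TFEB and TFE3 targets, so this share depends on how the list was chosen. Of the 22 lysosome genes called higher, 14 had a window and 7 of these held it. MCOLN1 (0.12) and ATP6V0D1 (0.03) held it too and were not called. Of the 19 cholesterol genes with a window, 3 held it, among them SC5D (-0.02), which was not called. The share was 8.89% among all genes called higher and 6.14% among those called lower. The median log2 fold change of the 559 genes with the word was 0.02. TCACNCCAC was in 1.11% of all windows and in 1 of the 19 cholesterol windows, that of SREBF2. A match is a description of the letters and shows no binding. Windows around the match, in capitals, are given for 5 genes that rose, on the strand of the gene.
CTSA (chr20:45891282-45891308, plus strand): aggaagactgTCACGTGgcgccggagt
NEU1 (chr6:31862932-31862958, minus strand): tgctgcgtgaTCACGTGggaggagatg
CTSD (chr11:1763958-1763984, minus strand): cggccgcgccCACGTGAccggtccggg
INSIG1 (chr7:155297812-155297838, plus strand): ccgggcaggcTCACGTGatgcgggccc
SREBF2 (chr22:41832962-41832990, plus strand): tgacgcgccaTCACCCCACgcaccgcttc

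Genes of double-stranded RNA sensing and the interferon response moved weakly. Of 38 tested, 7 were called higher (18.4%, against 10.9% of all genes) and 2 lower (5.26%, against 8.54%). The median log2 fold change was 0.07. IFI6 (0.83) and IFIT3 (0.65), both interferon-induced, and the endosomal double-stranded RNA sensor TLR3 (0.42) were the largest called rises. Of these, IFI6 and IFIT3 did not reach a mean log2 CPM of 2. TLR3 was read at 3.70, 3.36, 3.68 and 3.86 CPM in DMSO and at 4.10, 4.85, 5.15 and 5.30 CPM in siControl. Its call was near the threshold (adjusted p = 0.0411) and was lost under 11 alternatives, among them leaving out siControl replicate 2, 3 or 4 or any single DMSO library (adjusted p from 0.0535 to 0.105). ISG15 (-0.07), IFIH1 (0.24) and DDX58 (-0.09), which encodes RIG-I, were not called. The count of 7 fell to 1 without siControl replicate 2, to 4 without siControl replicate 3 or 4 or DMSO replicate 4, and to 4 with upper quartile scaling. In sgIGF2BP2 cells 3 were called higher and 2 lower. NF-kB feedback genes and cytokines were called higher in 10 of 23 cases (43.5%) and lower in 2 (8.70%), with a median of 0.11. In sgIGF2BP2 cells 5 were called higher and 1 lower. Besides BIRC3 and TNFAIP3 the rises in sgIGF2BP3 cells include TRAF1 (0.54), BCL3 (0.44), CSF1 (0.32) and NFKBIA (0.21), while NFKBIZ (-0.22) and IL11 (-0.27) fell. The list had 7 genes called higher with the GC content and length offset, where its median was 0.06. It also had 7 called higher without siControl replicate 3 or without DMSO replicate 4. The list had 0 genes called lower without siControl replicate 4 or without DMSO replicate 2, and 1 without siControl replicate 1, 2 or 3 or DMSO replicate 1.

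Adhesion and matrix genes rose in 12 of 27 cases (44.4%, against 10.9% of all genes) and fell in 3 (11.1%, against 8.54%). The median log2 fold change was 0.06. LAMA1, a chain of the basement membrane protein laminin, was read at 94.4, 90.2, 91.0 and 91.4 CPM in DMSO and at 167, 159, 160 and 149 CPM in siControl. It rose by 0.79 (SE 0.042, adjusted p = 1.92e-24). ITGA5, the alpha chain of the main fibronectin receptor, went from 197 ± 9.89 to 324 ± 6.83 CPM (0.72, SE 0.035, adjusted p = 1.33e-26), and its partner ITGB1 rose by 0.32. ITGAX, an integrin alpha chain best known from leukocytes, went from 16.9 ± 1.39 to 29 ± 1.70 CPM (0.78, SE 0.071). MMP3 (1.09), LAMC1 (0.36) and COL6A1 (0.33) were also called higher, but MMP3 did not reach a mean log2 CPM of 2. TIMP1, an inhibitor of matrix proteases, fell by 0.51 on the log2 scale, MMP14 by 0.34 and LAMB3 by 0.26. In sgIGF2BP2 cells 12 of these 27 were called higher and 4 lower. The median of the list was 0.12 without siControl replicate 2 or DMSO replicate 3, 0.11 without DMSO replicate 2 and 0.09 without siControl replicate 1, and 9 were called higher without siControl replicate 2.

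Several growth factor response genes fell. Of 30 immediate early genes 10 were called lower (33.3%, against 8.54% of all genes) and 4 higher (13.3%, against 10.9%). The median log2 fold change was -0.10. FOS, a subunit of the AP-1 transcription factor, was read at 12.3, 10.6, 12 and 13.0 CPM in DMSO and at 8.40, 9.22, 9.37 and 7.79 CPM in siControl. It was lower in all 4 siControl libraries (-0.45, SE 0.099, adjusted p = 0.000434). EGR1 (-0.42), EGR3 (-0.41), JUN (-0.21), IER2 (-0.20) and MCL1 (-0.31) fell too. KLF6 (0.56), KLF2 (0.33), IER3 (0.29) and JUND (0.19) rose, but 1 gene of the list was called higher with the GC content and length offset and 2 without siControl replicate 4 or DMSO replicate 1 or 3. DUSP6, a phosphatase that ERK signalling induces against itself, was read at 121, 111, 121 and 120 CPM in DMSO and at 85.3, 82.3, 84.0 and 84.4 CPM in siControl. It fell by 0.49 on the log2 scale (SE 0.042, adjusted p = 3.24e-15), whereas DUSP5, another phosphatase of this kind, rose by 0.36. Of 19 MAPK feedback genes 6 were called lower (31.6%) and 4 higher (21.1%), but 2 or 3 were called lower without siControl replicate 1 or 4 or DMSO replicate 1, 3 or 4. In sgIGF2BP2 cells 1 of them was called lower and 4 higher (median -0.01). Of 33 contractile, SRF and YAP target genes 4 were called lower (CTGF, CYR61, AMOTL2 and ZYX) and 5 higher (TAGLN2, CRIM1, CALD1, TPM1 and FLNA), with 9 lower and 4 higher under the offset. These shares, 12.1% lower and 15.2% higher, are near those over all genes (8.54% and 10.9%), and in sgIGF2BP2 cells 8 were called lower and 4 higher.

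Genes of DNA replication and division leaned lower by small amounts. Of 45 G1/S genes 13 were called lower (28.9%, against 8.54% of all genes) and 3 higher (6.67%, against 10.9%). The median log2 fold change was -0.07. The cyclin gene CCNE2 was read at 60.9, 57, 60.1 and 55.9 CPM in DMSO and at 44.8, 44.9, 45.8 and 46.9 CPM in siControl (-0.36, SE 0.064, adjusted p = 1.64e-05). RRM2, a subunit of ribonucleotide reductase, fell by 0.30 on the log2 scale and PCNA, the replication clamp, by 0.18. Cyclin D1 (CCND1) and CCNE1 moved up, by 0.31 and 0.26. CCND1 went from 194 ± 4.87 to 240 ± 5.31 CPM. CDK6, the kinase partner of D cyclins, was read at 57.5, 58.8, 58.7 and 58.0 CPM in DMSO and at 79.7, 83.1, 75.3 and 83.7 CPM in siControl. It rose by 0.47 (SE 0.052, adjusted p = 5.26e-11). Of 47 G2/M genes 11 were called lower (23.4%) and 6 higher (12.8%). These counts turned to 7 lower and 8 higher with the GC content and length offset and to 7 lower without DMSO replicate 4. CDK1 (-0.20), CCNB1 (-0.17) and CDC20 (-0.19) were among the falls and MYBL2 (0.26) and AURKB (0.19) among the rises.

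Genes of the cytosolic ribosome, the respiratory chain and protein folding had called falls and no called rises. Of 78 cytosolic ribosomal protein genes 31 were called lower (39.7%, against 8.54% of all genes) and none higher, with a median log2 fold change of -0.09. In sgIGF2BP2 cells 44 were called lower. RPL41 was read at 154, 162, 169 and 153 CPM in DMSO and at 106, 101, 133 and 120 CPM in siControl (-0.47, SE 0.066, adjusted p = 5.96e-08). Of 55 nuclear-encoded respiratory chain subunits 11 were called lower (20%) and none higher (median -0.06), among them NDUFS6 (-0.27) and ATP5ME (-0.23). Of 19 heat shock genes 7 were called lower (36.8%) and none higher (median -0.08), with DNAJB1 at -0.21, DNAJA1 at -0.19 and HSPA8 at -0.12. In sgIGF2BP2 cells 11 were called lower. Transcript length and GC content moved with the fold changes, and their part in them was not tested beyond an offset. The median transcript GC content was 54.8% in all genes called higher and 44.2% in all called lower, against 49.4% over the genes tested. In sgIGF2BP2 cells it was 50.3% in genes called higher and 48.5% in those called lower. The fifth of genes with the shortest transcripts (207 to 1745 bases) had a median log2 fold change of -0.03, 7.28% called higher and 11.4% lower, and the fifth with the longest (5303 to 109224 bases) had a median of 0.02, 13.2% higher and 5.96% lower. With the GC content and length offset 18 ribosomal protein genes and 8 respiratory chain genes were called lower, and without siControl replicate 2 these were 20 and 7. Leaving out siControl replicate 3 or 4 or DMSO replicate 1 or 3 also left 7 respiratory chain genes, whereas upper quartile scaling gave 18.

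A word count over 3′ UTRs was made after the gene values had been seen, as a description without a test. For 11171 genes with a 3′ UTR in GENCODE 29 the log2 fold change was adjusted for UTR length, UTR GC content and level, and the 13219 words of 7 bases found in at least 200 genes were ranked by the mean of their genes times the square root of the number of genes. The word GGTGCTA, the last 7 bases of the extended miR-29 match, was at rank 1 and the miR-29 match itself at rank 2. Other words with the core GGTGC ranked high without being the full match. AGGTGCT at rank 4 and GGTGCTT at rank 6 share part of it. AAGGTGC at rank 5 shares no 6 letters in a row with the match of any family examined. The let-7 match was at rank 3, the miR-19 match at rank 9 and the miR-17 match at rank 201, behind other families such as miR-25/92 at rank 19. The miR-17 match was at rank 51 in sgIGF2BP2 cells. In sgIGF2BP2 cells, from other libraries, the ranks of the miR-29, let-7 and miR-19 matches were 1, 6 and 8. In the doxycycline against DMSO comparison of sgAAVS1 cells, which involves no siRNA and none of these libraries, they were 12387, 8210 and 791. The miR-29 and let-7 matches thus ranked high in the siControl comparison of both lines and not in this one. The sgAAVS1 comparison also differs in guides, doxycycline and Cas9 induction, and what sets the rankings apart was not tested.

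The shift was small and spread over many genes. The 1572 genes with a miR-29 match had a median log2 fold change of 0.04, against -0.01 for the 9599 without, and 17% of them were called higher and 6.36% lower, against 10.0% and 8.97% without. The 247 genes with 2 or more miR-29 matches had a median of 0.06, with 18.6% called higher and 3.64% lower. The 1084 genes with a let-7 match had a median of 0.04, with 16.2% called higher and 6.46% lower. These shares were not adjusted, and some families ranked far lower had similar ones. Genes with a miR-125 match (rank 645) were called higher in 16.4% and lower in 5.61%. For miR-24 (rank 2580) the shares were 16.3% and 5.89%. Over the 30 families chosen as broadly expressed, the share called higher ran from 10.2% to 17%. With the GC content and length offset the medians with and without a match were 0.026 and -0.008 for miR-29. They were 0.027 and -0.006 for let-7. Genes with an 8-base let-7 match were called higher in 17.5% of cases and those with 7-base matches only in 15.4%, with medians of 0.03 and 0.04 here and of 0.04 and 0.03 in sgIGF2BP2 cells. For miR-29 the order of the shares called higher was the other way. Genes with an 8-base match were called higher in 16.3% and lower in 8.13%, against 17.2% and 5.89% with 7-base matches only. The adjusted means reversed both orders. They were 0.025 with an 8-base let-7 match and 0.035 with 7-base matches only, and 0.032 and 0.024 for miR-29. The 113 genes with 2 or more let-7 matches had a median of 0.03, with 18.6% called higher and 8.85% lower. For miR-17, the 547 genes with an 8-base match were called higher in 19.7% of cases and those with 7-base matches only in 11.2%. Their adjusted means were 0.0372 and 0.0001. The 689 genes with 2 or more miR-17 matches were called higher in 11.47%, against 10.4% of those with none, and had an adjusted mean of 0.0058. In sgIGF2BP2 cells the shares with 2 or more miR-17 matches and with none were 15.7% and 8.85%. In sgIGF2BP2 cells 17.5% of genes with a miR-29 match and 16.5% of those with a let-7 match were called higher, against 10.2% of all genes. The adjusted mean was above 0 for the matches of 27 of 30 miRNA families chosen as broadly expressed and 5 of 7 chosen as tissue-restricted, the highest being 0.03 and 0.01. A mean above 0 is common among all words. The miR-223 match, just above 0 (9.6e-05), was at rank 6739 of 13219. The exact share of words above 0 was not counted. The levels of the miRNAs were not measured in these poly(A) libraries.

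**Figure D1:**
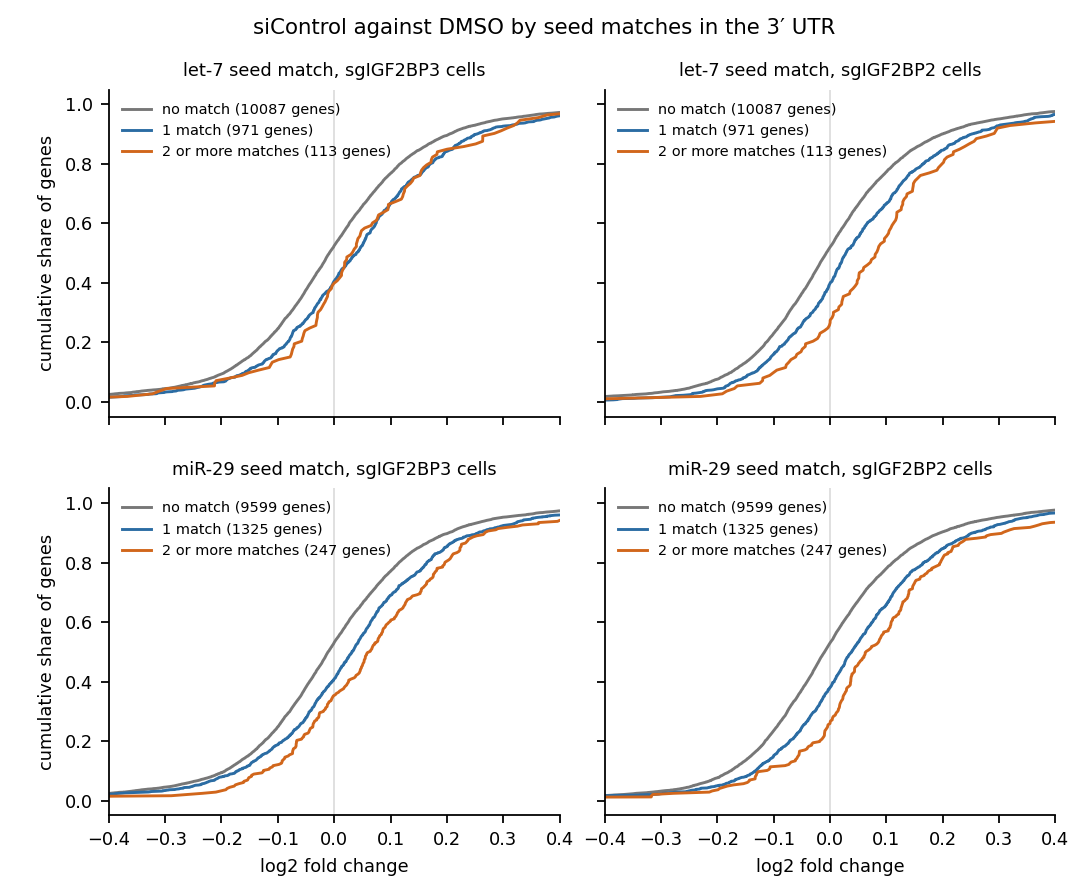
Cumulative share of genes (vertical axis) by log2 fold change of siControl against DMSO (horizontal axis, shown from -0.4 to 0.4) for genes with 0, 1 or 2 or more let-7 (top) or miR-29 (bottom) seed matches in the 3′ UTR, in sgIGF2BP3 (left) and sgIGF2BP2 cells (right). The curves of genes with matches lie to the right of the grey curve over most of their range, as with a median of 0.06 against -0.01 for 2 or more miR-29 matches in sgIGF2BP3 cells.

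Among the named genes, DICER1, TNFAIP3 and SLC2A3 of the 12 rises held a let-7 or miR-29 match and none of the 12 falls did. MT-ATP8 and MT-ND6 of the falls had no 3′ UTR in the search and could hold none. The 3′ UTRs of the other falls ran from 41 bases (PSMA6) to 6745 bases (RFX3), against a median of 992 over the genes tested. Of all genes with a 3′ UTR 2345 of 11171 held one of them (21.0%), which is near the share among these rises. Genes with a match also fell. FOS (-0.45) and HIST1H2AC (-0.38) hold a 7-base miR-29 match, as does RPS10 (-0.44), whose call was lost under 9 alternatives, among them leaving out siControl replicate 1, 2 or 3 or DMSO replicate 1, 2 or 4 (adjusted p from 0.0588 to 0.176). INSIG1, HMGCS1, SREBF1 and SCD of the lipid genes, CDK6 with 2 miR-29 matches, MYBL2 and BTG2 rose and hold at least 1 of the matches.

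The same treatments in sgIGF2BP2 cells moved genes largely in the same directions. There, 2101 genes were called (18.4%), 1168 higher (10.2%) and 933 lower (8.16%), and 85 passed against a change of 1.2-fold (0.744%). In total 1274 genes were called in both lines, which is 57.3% of the calls in sgIGF2BP3 cells and 60.6% of those in sgIGF2BP2 cells, and all 1274 changed in the same direction. Across the 11428 genes the log2 fold changes had a Pearson r of 0.54 and a Spearman rho of 0.59, over genes that are not independent replicates, and 97.1% of the genes called in sgIGF2BP3 cells had the same sign in sgIGF2BP2 cells, against 73.2% of all genes. A test of the difference between the 2 responses called 1 gene of 11428 (0.00875%), with edgeR's quasi-likelihood test and Benjamini-Hochberg adjustment, and 590 genes had an unadjusted p under 0.05. That gene was HMOX1. It went from 65.4 ± 2.72 to 90.7 ± 4.34 CPM in sgIGF2BP2 cells (0.47), so its rise was larger by 0.33 in sgIGF2BP3 cells (SE 0.063, adjusted p = 0.0288). The call of this difference was lost in 14 of 29 alternatives, among them leaving out siControl replicate 1 or 3 or DMSO replicate 1, 3 or 4 of sgIGF2BP3 cells (adjusted p from 0.0671 to 0.244). Other genes may differ between the lines by amounts that 4 wells per group could not show.

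**Figure D2:**
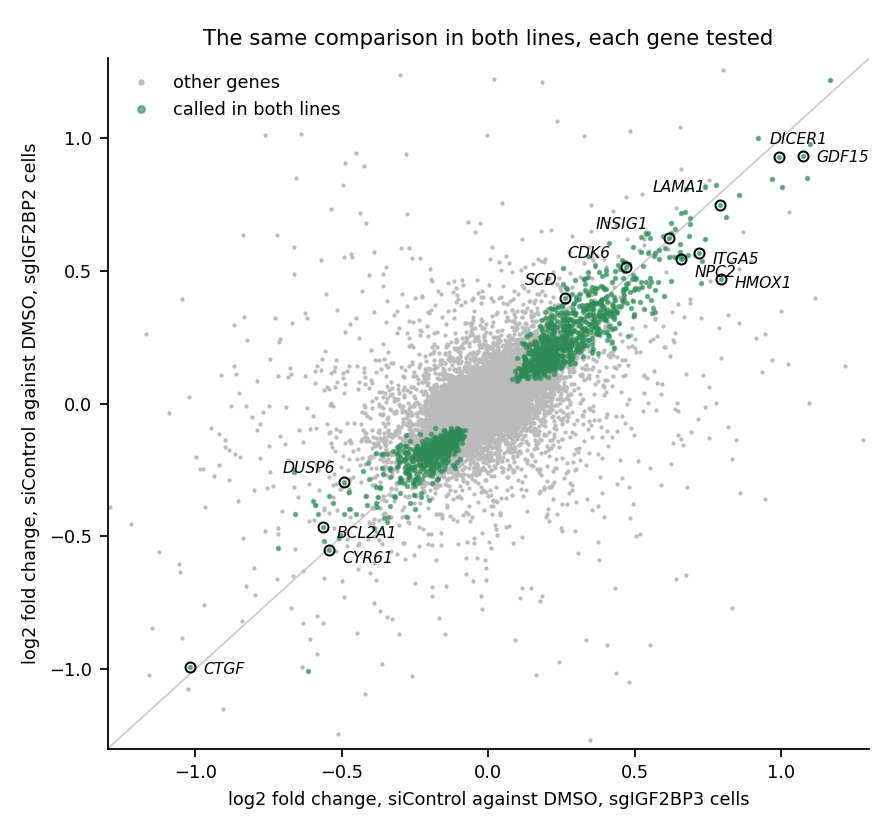
Log2 fold change of siControl against DMSO in sgIGF2BP3 cells (horizontal axis) and in sgIGF2BP2 cells (vertical axis) for 11414 genes, with the 1274 genes called in both lines in green and named genes circled; 14 genes lie outside the axes. Genes called in both lines follow the diagonal, and HMOX1 lies below it.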

How the data were processed

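Poly(A) RNA of RKO cells was sequenced in 40 libraries of 10 groups. The authors deposited whole-number counts per gene, not normalized; bcl2fastq 2.20.0.422, STAR 2.7.5c and hg38 come from the submitters' processing notes, while the counter, its annotation and strand setting are not given in the sources used here. All 40 columns matched a sample. Of 19962 genes, 19847 were found in GENCODE 29 and 11428 passed edgeR's filterByExpr, keeping 99.976% of the counts. All libraries were fitted together with edgeR 4.0.16 (R 4.3.3), using TMM scaling, 1 coefficient per group, the quasi-likelihood test and Benjamini-Hochberg adjustment, with a threshold of 0.05. SE is the log2 fold change over the root of F. CPM values are TMM-scaled. Named genes were up to 12 rises and 12 falls, up to 2 called genes per list, the IGF2BP genes, and called differences between lines. The members and the 27 gene lists were chosen with earlier results of these data known, and the seed and promoter searches after seeing the data. The fit was tested on simulated data. DESeq2 1.42.0, limma 3.58.1 and other settings served as alternatives. The 4-thiouridine conversions were not analysed here.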

Additional observations from a re-analysis of the deposited data

Results flagged for a closer look

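In 5 of 128 groups of 4 libraries examined, 1 library lay far from the other 3 by Dixon's criterion, and chance alone flags about 1 in 20 groups. All 5 were DMSO libraries of sgIGF2BP3 cells. SCD was at 332.007 CPM in replicate 1, with the others at 350.002 to 351.03 CPM. EDEM1, which sorts misfolded glycoproteins for degradation, was at 62.8914 CPM in replicate 4, with the others at 67.3901 to 68.043 CPM. DUSP6 was at 110.746 CPM in replicate 2, with the others at 120.134 to 120.736 CPM. NDUFS6 was at 108.492 CPM in replicate 3, with the others at 105.916 to 106.289 CPM. KRT8, an epithelial keratin, was at 51.9491 CPM in replicate 3, with the others at 55.7626 to 56.4851 CPM. The siControl effect on HMOX1 was larger by 0.325951 on the log2 scale in sgIGF2BP3 than in sgIGF2BP2 cells (SE 0.063, adjusted p = 0.0288 with edgeR's quasi-likelihood test and Benjamini-Hochberg adjustment).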

How the results depend on the processing

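Against a change of 1.2-fold, 125 genes passed in sgIGF2BP3 cells (108 higher, 17 lower) and 85 in sgIGF2BP2 cells (77 higher, 8 lower), in place of 2222 and 2101, since this test asks for more than a change. Under the other scalings, filters, tools and offsets, the counts were 1903 to 2753 and 1802 to 2430. Leaving out 1 library gave 1701 to 2024 (1003 to 1173 higher, 698 to 851 lower) and 1679 to 1882. Upper quartile scaling split the calls of sgIGF2BP2 cells into 976 higher and 1266 lower, and the GC content and length offset into 1047 and 1383. The difference between the lines had 0 called genes with library totals only, after thinning to the smallest total and against 1.2-fold, 0 to 1 when 1 library was left out, and 3 (2 of them lower) without a count filter; the cause was not tested. Deviations of same-numbered siControl and DMSO libraries correlated at 0.080, 0.012, 0.0074 and 0.044 in sgIGF2BP3 cells and at 0.092, 0.075, 0.044 and 0.044 in sgIGF2BP2 cells, all above 0 and under 0.1. Each siControl library correlated best with its own number in sgIGF2BP2 cells, and replicates 1 and 4 did in sgIGF2BP3 cells. This is a hint from the data, and the labels do not say what a number marks. With the replicate block 2224 genes were called, and 2141 with the block and the offset. Of 1373 values of named genes under alternatives, 1288 kept their direction and call, 83 lost the call, 2 gained one and 0 reversed. Outside the 1.2-fold test, and apart from the HMOX1 difference, calls were lost for TLR3 (10 alternatives), NDC80 (8), RPS10 (8), VIM (6), NKD1 (2) and SEC61B (1). The cause of these losses was not tested. The adjusted mean of genes with a let-7 match was 0.0266 to 0.0330 over 21 alternatives, and that of genes with a miR-29 match 0.0247 to 0.0296.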

Other observations

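Of 37 hypoxia and glycolysis genes 8 were called higher (21.6%, against 10.9% of all genes) and 5 lower (13.5%, against 8.54%). The median log2 fold change was 0.04, with the neuronal enolase ENO2 at 0.33 and ALDOC at 0.29 against LDHA at -0.24. Of 28 p53 targets 7 were called higher (25%) and 2 lower (7.14%), with a median of 0.03. TP53INP1 (0.53), BTG2 (0.32) and the cell cycle inhibitor CDKN1A (0.21) rose, while MDM2, which degrades p53, was at -0.17 and SERTAD1 at -0.32. Of 32 genes of the integrated stress response 3 were called higher, GDF15, TRIB3 (0.22) and PPP1R15A (0.20), and 3 lower, ATF4 (-0.11), WARS (-0.18) and EPRS (-0.16). These shares, 9.4% each, are near those over all genes.

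Of 21 NRF2 targets 6 were called higher (28.6%, against 10.9% of all genes) and 3 lower (14.3%, against 8.54%), with a median of 0.00. HMOX1, OSGIN1 (0.53) and the ferritin light chain gene FTL (0.32) were up and GCLM (-0.36) and TXNRD1 (-0.30) down. Of 34 genes of the unfolded protein response 3 were called higher and 4 lower, among them EDEM1 (0.31) and SEC61B (-0.19). These shares, 8.82% and 11.8%, are near those over all genes (10.9% and 8.54%). Of 18 known IGF2BP target mRNAs 4 were called higher (22.2%) and 2 lower (11.1%), among them HMGA2 (0.16) and TFAM (-0.26), with a median of -0.00. The splits of the stress, unfolded protein and hypoxia lists changed with single libraries left out.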
